A study of Mus musculus with 8 samples.

Results

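The genes described here are 47 genes of the G2/M transition and of mitosis, a list fixed by gene name that spans cyclins and their kinase, mitotic kinases, the spindle checkpoint, kinetochores, kinesins and spindle proteins, chromosome structure, and cytokinesis. Of these, 46 have a probe set that names them alone, out of 18193 genes read on the array, and Ccnb1, the gene of cyclin B1, was not analysed here. A filter on low signals kept 32 of the 46, out of 12112 genes kept in all, so that 14 members were read but not tested. The brightest probe set on average stood for each gene, in signal units of the MAS5 algorithm, and differences are on the scale of log2(signal + 71).

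The arrays compared 2 arms of mice of the background Metff/ff:ERCre+/+, in which Met can be deleted throughout the body by a Cre that tamoxifen switches on. In the arm labelled MET KO + EGFRi, mice had 5 daily injections of tamoxifen (100 µl at 10 mg/ml in corn oil), and the EGFR inhibitor canertinib, mixed into the food to supply about 80 mg/kg/day, began 1 day before TCPOBOP. Control mice were littermates of the same background that received corn oil only, without tamoxifen and without canertinib. Both arms were given TCPOBOP at 3 mg/kg by gavage, at least 5 days after the last tamoxifen, and livers were read on days 0, 1, 2 and 5. The effects of deleting Met, of canertinib and of tamoxifen cannot be told apart, and the labels do not say whether day 0 mice had received TCPOBOP. RNA of pooled livers gave 1 array per arm and day, so that each value below is a single array with no replicate, and the number of arrays limits its precision.

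TCPOBOP activates the nuclear receptor CAR in mouse hepatocytes, which then leave quiescence and divide without an injury to the liver. Entry into mitosis is driven by CDK1 bound to cyclin A or cyclin B. The genes of this programme are held down in quiescent cells by the DREAM complex, which binds a promoter element called the CHR (cell cycle genes homology region). They are switched on late in the cycle by B-MYB and FOXM1 acting at the same element, together with NF-Y, which binds the CCAAT box. Hepatocytes can also leave mitosis without completing cytokinesis, which is how the liver gains cells with more than 1 nucleus or with doubled genomes.

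The arrays were alike in their overall range, with median signals of 224 to 251. Cyp2b10, a target of CAR, had 444 and 356 in control and MET KO + EGFRi on day 0, and 32027 to 48292 in the 6 later arrays. One of the 2 probe sets of Met read 786, 561, 359 and 531 in control on days 0, 1, 2 and 5, against 639.5, 532, 650 and 389 in MET KO + EGFRi, lower on days 0, 1 and 5 and higher on day 2. The other was higher in MET KO + EGFRi on all 4 days, with 926 to 1444 in control against 1049 to 2034. The exon that is deleted is not named in the labels, and a probe set outside it does not check the deletion. All 12 hepatocyte markers passed the filter, with Alb at 37254 to 77082, so the tissue read as liver.

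Promoter sequences were looked up because the members share a known promoter code. RefSeq windows on GRCm38.p6, from 250 bases before to 50 bases after an annotated start, were found for 38 of the 47 members. The 120 bases before the start are shown, 5′ to 3′ on the gene's strand, for 5 members with large differences between the arms or over time, and for Mad2l1, which had the largest difference between the arms on day 2 among members kept and has no match to either motif here. Capitals mark CCAAT and the CHR (TTTGAA or TTTAAA), on either strand, so that ATTGG and TTCAAA are the same motifs read from the other strand.
Ccnb2, chr9:70421555-70421674, minus strand: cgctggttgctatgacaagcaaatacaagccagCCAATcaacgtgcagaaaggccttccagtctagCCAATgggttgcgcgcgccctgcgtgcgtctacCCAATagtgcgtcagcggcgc
Cdk1, chr10:69352913-69353032, minus strand: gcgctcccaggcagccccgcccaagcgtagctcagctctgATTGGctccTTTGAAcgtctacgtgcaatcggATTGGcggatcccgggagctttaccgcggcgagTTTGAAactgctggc
Cdc20, chr4:118437344-118437463, minus strand: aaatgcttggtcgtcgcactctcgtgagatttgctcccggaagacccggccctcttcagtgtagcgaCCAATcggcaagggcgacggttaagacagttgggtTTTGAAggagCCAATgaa
Ect2, chr3:27153879-27153998, minus strand: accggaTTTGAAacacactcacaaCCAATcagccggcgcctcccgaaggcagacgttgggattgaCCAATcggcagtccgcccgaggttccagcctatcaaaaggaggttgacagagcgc
Top2a, chr11:99024190-99024309, minus strand: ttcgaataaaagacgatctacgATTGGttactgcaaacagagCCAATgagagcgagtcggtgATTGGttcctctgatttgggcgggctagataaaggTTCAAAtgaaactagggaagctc
Mad2l1, chr6:66535101-66535220, plus strand: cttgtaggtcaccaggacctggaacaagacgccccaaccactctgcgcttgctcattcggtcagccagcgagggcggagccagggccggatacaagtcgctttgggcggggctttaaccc

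The Cdk1 stretch held 2 CHR matches and 2 CCAAT boxes, and that of Cdc20 1 CHR and 2 CCAAT boxes, 1 of them beside the CHR. The 3 CCAAT boxes of Ccnb2 began 87, 54 and 21 bases before the start, and its nearest CHR began at base 5 of the transcript, past the stretch shown. Over the 38 members with a window, 31 (81.6%) held a CHR and 30 (78.9%) a CCAAT box, and 27 (71.1%) held both in 1 window. Among all 27025 genes with a window these shares were 30.6%, 41.1% and 12.2%. For 35 DNA replication genes they were 31.4%, 57.1% and 20%, and for 92 other mitosis genes 47.8%, 65.2% and 35.9%. The core of the E2F site (TTTCGCG or TTTGGCG) was found in 10.5% of members, 40% of DNA replication genes and 2.68% of all genes. Both strands were searched for each motif, matches of different motifs may overlap, and a gene with several windows counted once. The members without a CHR match in the window were Bub1, Cks2, Mad2l1, Melk, Nek2, Nuf2 and Nusap1. These counts describe letters in a window and not binding. The median day 2 difference between the arms was -0.69 over 30 members with a CHR match and a probe set, and -0.28 over the 7 without a match, in which Mad2l1 had -4.00 and Nuf2 -2.39. Against day 0, the control day 2 medians were 0.88 and 0.48. These medians use main probe sets and include members below the filter. The -0.28 is the value of Bub1, which is below the filter, and whether the sets with and without a CHR match differ was not tested.

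**Figure D1:**
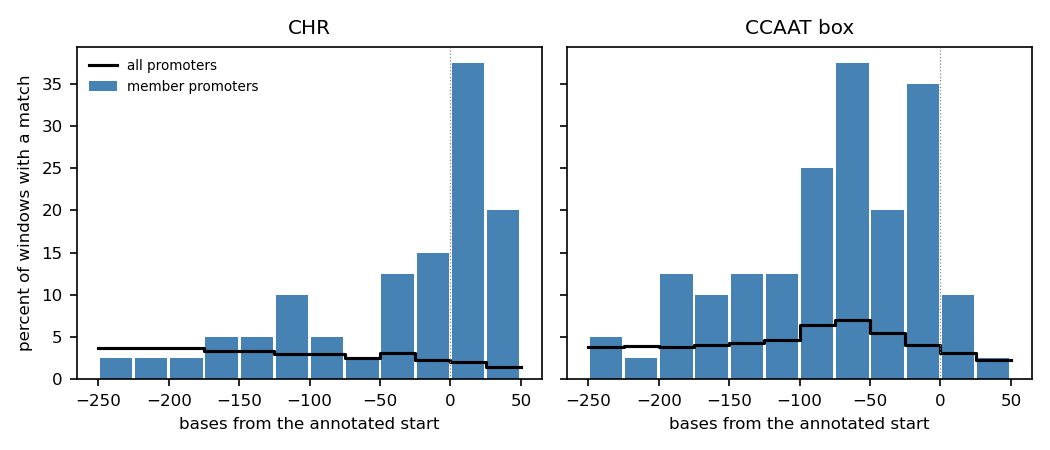
Percent of promoter windows with a match to the CHR (left) or the CCAAT box (right) that begins in each bin of 25 bases, by distance in bases from the annotated start, for 40 windows of 38 members (bars) and all 32851 windows (line). CHR matches of members were most frequent in the 25 bases after the start (37.5% against 1.994% of all windows), and CCAAT matches in the bin 75 to 50 bases before it (37.5% against 6.986%).

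In control livers 22 of the 32 mitosis genes kept, and 30 of the 46 read, were highest on day 2. On that day 25 of 32 were lower in MET KO + EGFRi than in control (47.7% of all genes kept), or 37 of 46 without the filter (46.8%). Counts of genes at least 2-fold apart are on the log2(signal + 71) scale throughout, which understates folds of weak signals, whereas a value given as times is a ratio of signals. On day 2 in control, 15 of the 32 members kept were at least 2-fold above day 0 and 1 was at least 2-fold below, while 2.58% of all genes kept were at least 2-fold above. Without the filter it was 22 of 46, against 2.99% of all 18193 genes. In MET KO + EGFRi, 5 of 32 members were at least 2-fold above day 0 on day 2, with 2.13% of all genes, or 6 of 46, with 2.84%. Between the arms on day 2, 10 of 32 members were at least 2-fold lower in MET KO + EGFRi and none was 2-fold higher, where 2.03% of all genes were lower and 2.88% higher by that much. Cenpa, at 0.98 on that scale, was just short of being 2-fold higher. Without the filter 13 of 46 were lower, against 2.77% of all genes, and 1 was higher (Kif23, on its main probe set only). Ccnb2, Ect2 and Smc2 passed the filter only through the control day 2 array, where they were highest, which the counts without the filter do not depend on. The median difference between the arms on day 2 was -0.70 over the 32 members and 0.02 over all genes kept. With the filter at the upper quartile 11 members were left, of which 2 were 2-fold lower, and their median was -0.006. In bulk liver, fewer dividing cells and less of each RNA per dividing cell cannot be told apart.

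**Figure D2:**
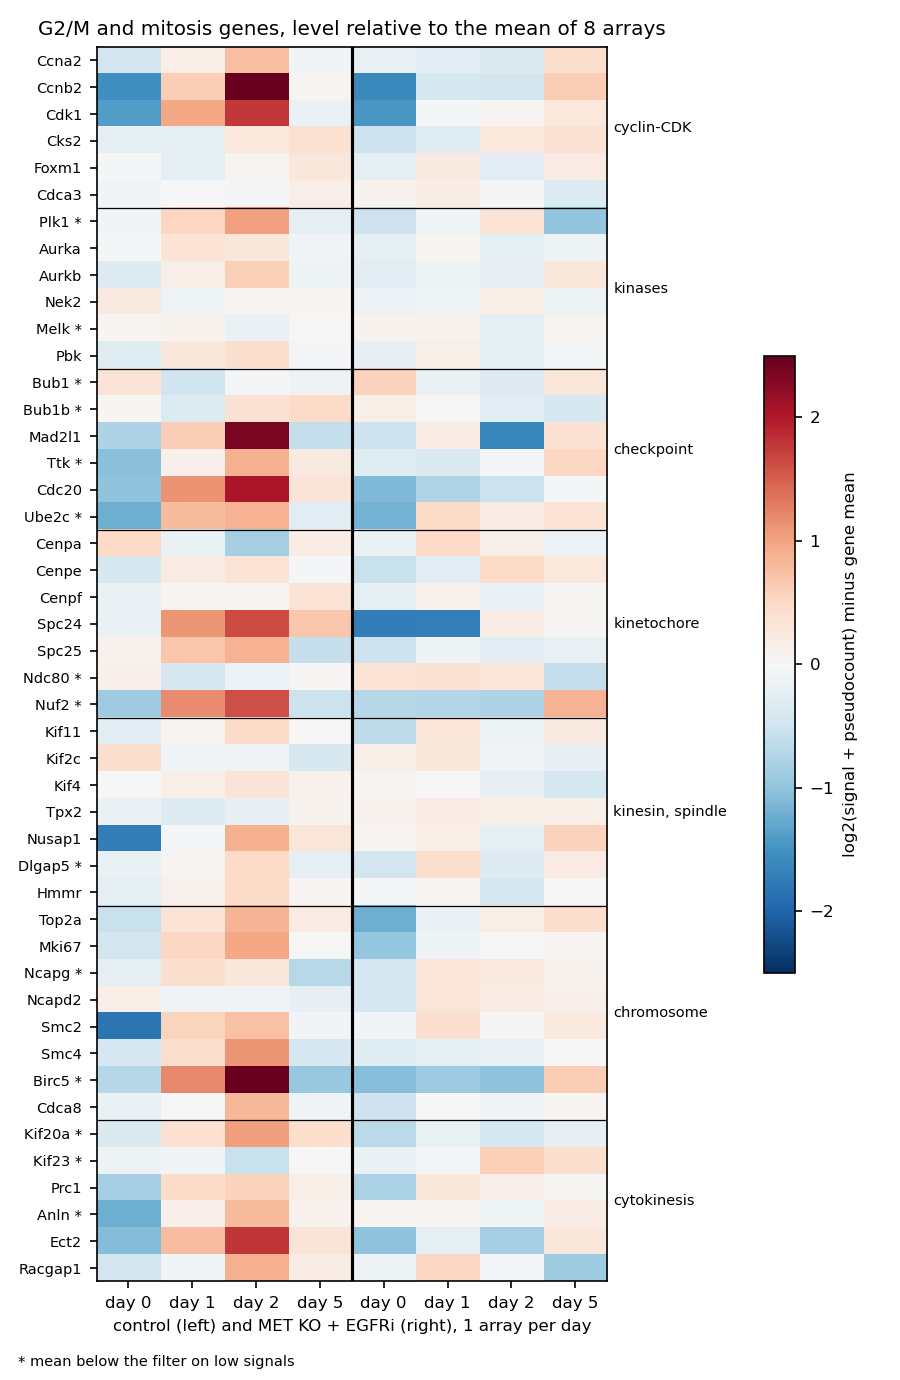
Level of the 46 members read, in rows by subgroup, in the 4 control arrays (left) and the 4 MET KO + EGFRi arrays (right), as log2(signal + pseudocount) minus the gene's mean over the 8 arrays. Red is above the mean and blue below, and an asterisk marks the 14 members below the filter. Most rows are red in the control day 2 column, and no MET KO + EGFRi column has as many dark red rows.

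On days 0, 1 and 5 fewer members were apart between the arms than on day 2. On day 0, 2 of 32 members were at least 2-fold higher in MET KO + EGFRi (2.64% of all genes) and 1 lower (2.18%), with a median of -0.07. On day 1, 5 of 32 were lower (2.63%), none was higher (2.89%) and the median was -0.16. By day 5 only 1 of 32 was lower (2.16%) and none higher (2.25%), and the median was 0.05. Within control, 9 of 32 members were at least 2-fold above day 0 on day 1 (2.58% of all genes) and 6 on day 5 (2.82%). Within MET KO + EGFRi it was 4 on day 1 (1.6%) and 7 on day 5 (2.82%). From day 2 to day 5, 7 of 32 were at least 2-fold lower in control (2.21%), whereas 3 of 32 were at least 2-fold higher in MET KO + EGFRi (1.4%). The comparisons within an arm share that arm's day 0 or day 2 array.

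**Figure D3:**
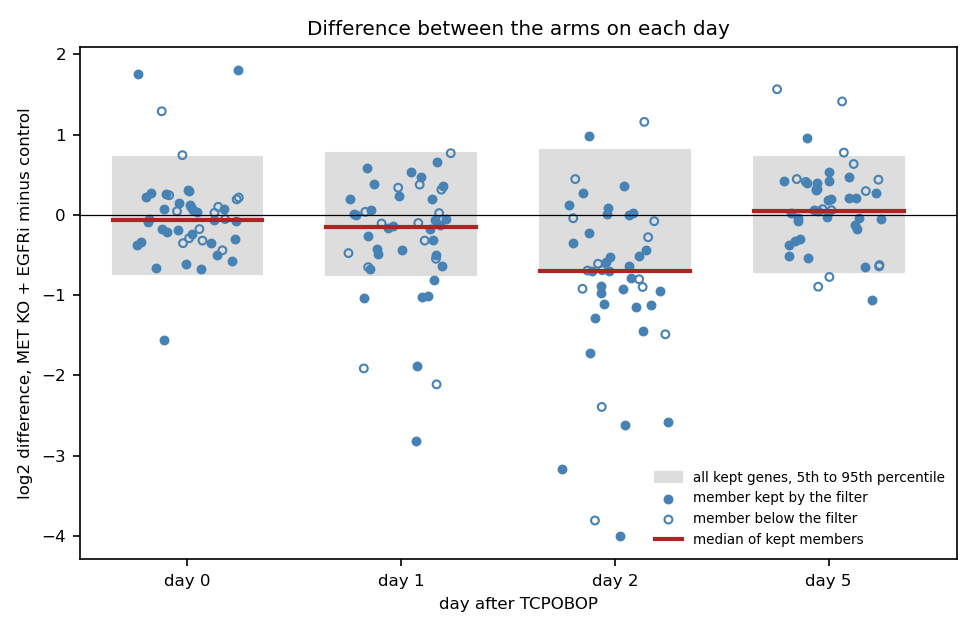
Difference between the arms on each day, as log2(signal + pseudocount) in MET KO + EGFRi minus control, for 32 members kept (filled points) and 14 below the filter (open points). Grey bands span the 5th to 95th percentile of all 12112 genes kept and red lines are medians of the kept members, -0.07, -0.16, -0.70 and 0.05 on days 0, 1, 2 and 5. The lowest points, near -4 on day 2, are Mad2l1 and Birc5.

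The day on which each gene was highest differed as well. In control, 22 of 32 members (68.8%) were highest on day 2, against 21.8% of all genes. In MET KO + EGFRi only 3 (9.38%) were highest on day 2, while 15 (46.9%) were highest on day 1 and 13 (40.6%) on day 5, where all genes had 24.1%, 24.8% and 26.9%. DNA replication genes, which act a phase earlier, were most often highest on day 1 in control (14 of 25, 56%), and also in MET KO + EGFRi (12 of 25, 48%). The highest MET KO + EGFRi signal of a gene was below its highest control signal for 28 of 32 members, or 38 of 46 without the filter, and for 53.5% of all genes kept. Its median was 78.5% of the control's highest signal for the 32 members, and 98.4% for all genes kept.

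**Figure D4:**
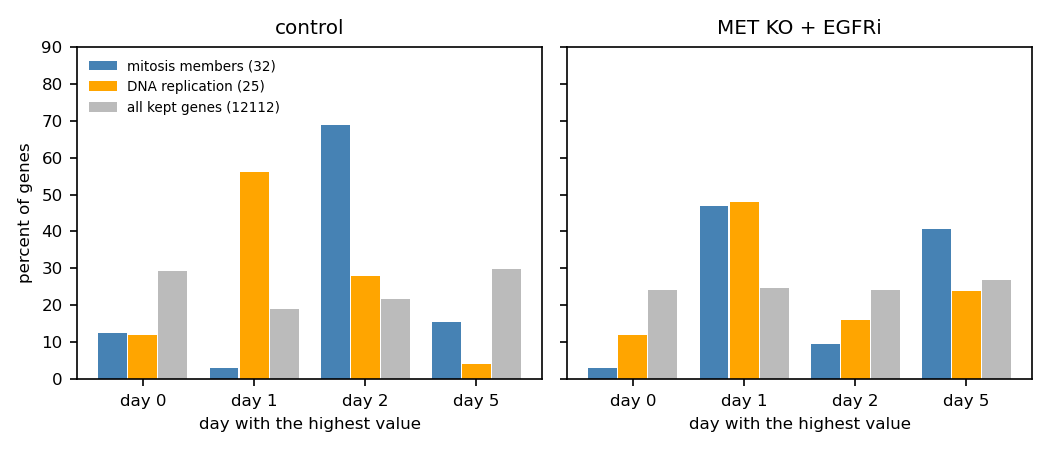
Percent of genes whose highest value fell on each day, in control (left) and MET KO + EGFRi (right), for 32 mitosis members, 25 DNA replication genes and 12112 genes kept. In control the members' tallest bar is day 2 (68.8%) and that of DNA replication day 1 (56%), whereas in MET KO + EGFRi the members' bars are tallest on days 1 and 5.

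Among the cyclins and their kinase, Ccnb2, Cdk1 and Ccna2 were highest on day 2 in control and lower in MET KO + EGFRi that day. Ccnb2 encodes cyclin B2, a partner of CDK1. Its signal in control was 40.7, 424, 2030.4 and 269 on days 0, 1, 2 and 5, and in MET KO + EGFRi 35.1, 174, 163 and 422. The control signal on day 2 was thus 12.4 times that of MET KO + EGFRi, whereas on day 5 the order of the arms was turned. Cdk1, the kinase itself, had 95, 784, 1421 and 317 in control, while MET KO + EGFRi had 88.5, 348, 383 and 449.9. Day 0 was the lowest array of both arms for Cdk1, and from day 1 on MET KO + EGFRi lay within 348 to 449.9. Ccna2, cyclin A2, which acts from S phase to early mitosis, read 356, 592, 921 and 487 in control, and MET KO + EGFRi read 453, 418, 387 and 706. Its second probe set gave another course, highest in control on day 1 (1289) and lowest in MET KO + EGFRi on day 2 (108), and both probe sets were lower in MET KO + EGFRi on day 2. Foxm1, the transcription factor of the programme, had 1122, 959, 1199.8 and 1409 in control, against 958, 1353, 922 and 1328 in MET KO + EGFRi. These levels show no common course with Ccnb2 or Cdk1, and the 3 other probe sets of Foxm1 were below the filter. Cks2, a small subunit that binds CDK1, was higher on days 2 and 5 in both arms, with 948 to 1827 over the arrays. Cdca3, which promotes the loss of the CDK1 inhibitor WEE1, stayed within 1469.8 to 2145 on its main probe set, while another that passed the filter followed the course of Ccnb2, with 499.5, 1162, 2196 and 683 in control, while MET KO + EGFRi read 486, 594, 549 and 826.

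**Figure D5:**
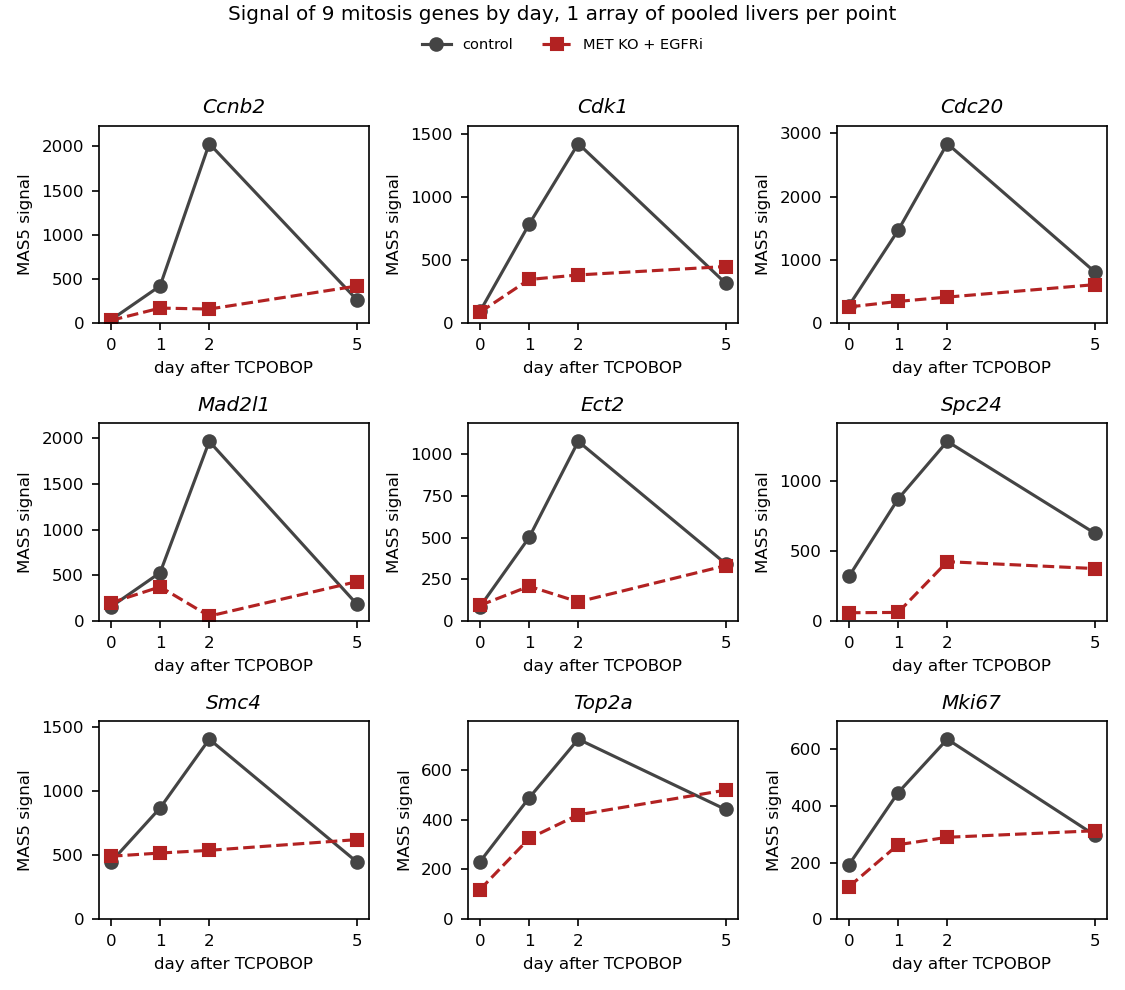
MAS5 signal (linear axis from 0) of 9 members on days 0, 1, 2 and 5 after TCPOBOP, in control (circles, solid line) and MET KO + EGFRi (squares, dashed line), 1 array per point. Control is highest on day 2 for all 9 genes, while the MET KO + EGFRi line never reaches the control's highest value. That line is highest on day 5 for 8 of the 9, Spc24 being highest on day 2. The 9 genes do not stand for all members, since 15 of the 32 members kept were highest on day 1 in MET KO + EGFRi and 13 on day 5.

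On their main probe sets, none of the 4 mitotic kinases kept was 2-fold apart on the log2(signal + 71) scale between the arms on any day or from day 0 in either arm, with a median of -0.58 between the arms on day 2. Aurkb came closest to it, at 0.92 from day 0 to day 2 in control, where its signals were 2.08 times apart. Aurkb, the kinase of the chromosomal passenger complex, had 330 to 685 in control, highest on day 2, and 348 to 541 in MET KO + EGFRi, highest on day 5. Aurka, which matures the spindle poles, spanned 521 to 725 in control, while MET KO + EGFRi had 464 to 572. Pbk, a kinase active in mitosis, spanned 440 to 756 and 459 to 623. The main probe set of Nek2, a centrosome kinase, was flat at 634 to 844. Another probe set of Nek2 passed the filter too and followed the course of Ccnb2, with 174, 507, 792 and 458 in control, and MET KO + EGFRi read 111, 284, 163 and 361. Plk1, the kinase needed for mitotic entry and exit, was below the filter, with 84.9 to 299 in control, against 20.2 to 159 in MET KO + EGFRi, both highest on day 2. Melk was at 5.7 to 27.5 in all arrays.

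Of the genes of the spindle checkpoint and the anaphase-promoting complex, Mad2l1 and Cdc20 passed the filter and both were far lower in MET KO + EGFRi on day 2. Mad2l1 encodes MAD2, which holds CDC20 inactive until chromosomes are attached. It had 158, 530.5, 1963 and 188 in control, while MET KO + EGFRi had 202, 376, 56.4 and 432. On day 2 it was the highest control array and the lowest MET KO + EGFRi array, a difference of -4.00 on the log2 scale. Cdc20, which activates the anaphase-promoting complex, had 283, 1469.9, 2840.5 and 816 in control, and MET KO + EGFRi read 261, 349, 416 and 613. After day 0, each control array of Cdc20 was above each MET KO + EGFRi array, and a second probe set read 1835 and 401 on day 2. The other 4 genes were below the filter. Ube2c, the ubiquitin-conjugating enzyme of that complex, was at 40.8 to 407 in control, against 44.4 to 292 in MET KO + EGFRi, with both arms lowest on day 0. Ttk, the checkpoint kinase MPS1, spanned 30.9 to 320.1 in control, while MET KO + EGFRi had 94.7 to 232. Bub1 and Bub1b, which encode the checkpoint proteins BUB1 and BUBR1, stayed at 19.9 to 120 without a common course.

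Among the kinetochore genes kept, Spc24 was at least 2-fold lower in MET KO + EGFRi already on day 0. Spc24, a subunit of the NDC80 complex that grips microtubules, had 319, 869.8, 1279 and 626 in control, and MET KO + EGFRi read 60.8, 63, 424 and 375. MET KO + EGFRi was the lower arm on each of the 4 days, with the largest difference on day 1 (-2.81). Spc25, its partner in that complex, had 549.6, 856, 983 and 316 in control, against 333, 458, 404 and 437 in MET KO + EGFRi. On this main probe set the MET KO + EGFRi arm was lower on days 0, 1 and 2 and higher on day 5. Another probe set of Spc25 also passed the filter and was higher in MET KO + EGFRi on each day. It had 244.5, 241, 216 and 252 in control, and MET KO + EGFRi read 316, 336.5, 219 and 283. The direction for Spc25 on days 0, 1 and 2 is thus not settled. Cenpe, a kinesin that aligns chromosomes, was slightly higher in MET KO + EGFRi on day 2, with 173, 298, 335 and 238 in control, while MET KO + EGFRi had 145, 191, 372 and 314. Cenpf, a large protein of the outer kinetochore, spanned 682 to 998 in control, and MET KO + EGFRi read 651 to 838. The centromeric histone Cenpa had 1187.5, 722, 428 and 938 in control, against 727, 1183, 915 and 732 in MET KO + EGFRi on a main probe set that ends in _x_at, which can bind related RNAs. Another probe set of Cenpa, below the filter, ran the other way, with 62.7, 267, 600.5 and 24.9 in control, while MET KO + EGFRi had 147, 75, 127 and 119.7, so the direction for Cenpa is not settled. Nuf2, another subunit of the NDC80 complex, was below the filter, but had 332 and 476 in control on days 1 and 2 and 36.1 and 33.2 in MET KO + EGFRi. Ndc80 itself stayed at 27.5 to 119.

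Among kinesins and spindle proteins, Nusap1 was 2-fold apart between the arms, in opposite directions on days 0 and 2. Nusap1, which bundles spindle microtubules, had 41.6, 295, 624 and 393 in control, and MET KO + EGFRi read 321, 349, 248 and 487. The control array of day 0 was the lowest of the 8, and the other 7 lay between 248 and 624. Hmmr, a spindle assembly protein, spanned 452 to 797 in control, against 398 to 580.3 in MET KO + EGFRi, and was lower on day 2 by a log2 difference of -0.89. Kif11, the motor that separates spindle poles, spanned 296 to 542 and 217 to 479, with day 0 lowest in both arms. Kif4, a chromosome-bound motor, spanned 739.5 to 950.4 and 532 to 783. Kif2c, which takes microtubules apart, was highest on day 0 in control (1453) and on day 1 in MET KO + EGFRi (1338). Tpx2, an activator of Aurora A, was at 1484 to 2183 in all arrays on its main probe set. Of its other probe sets that passed the filter, 1 read 314 in control and 210 in MET KO + EGFRi on day 2, and 1 read 1075 and 1093. Dlgap5, below the filter, spanned 149 to 292 in control, while MET KO + EGFRi had 119 to 283.

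Of 6 genes of chromosome structure kept, 5 were at least 2-fold above day 0 on day 2 in control, and 1 in MET KO + EGFRi. Of all genes kept, 2.58% and 2.13% were. Among the 5, Smc2 passed the filter only through the control day 2 array. Without the filter it was 6 of 8 in control and 1 of 8 in MET KO + EGFRi, against 2.99% and 2.84% of all genes. Top2a, the topoisomerase that untangles sister chromatids, had 231, 488, 724 and 441 in control, and MET KO + EGFRi read 119, 324, 419.8 and 519. Its MET KO + EGFRi signal was higher at each later day and ended above control. Mki67, the proliferation marker Ki-67 that coats mitotic chromosomes, had 192, 447, 636 and 297 in control, against 114, 263, 289 and 312 in MET KO + EGFRi. On day 2 control was 2.2 times as high, and on day 5 the arms were nearly level. Smc4, a core subunit of condensin, had 445, 867, 1403 and 447 in control, while MET KO + EGFRi had 490.2, 515, 536 and 619.6. Its partner Smc2 had 17.4, 392, 448 and 229 in control, while MET KO + EGFRi had 227, 341, 249.6 and 301. The control day 0 array alone was low for Smc2, so its difference from day 0 in control rests on that array. Cdca8, borealin of the passenger complex, had 323, 374, 718 and 341 in control, and MET KO + EGFRi read 239.7, 378, 343 and 396. Ncapd2, a further condensin subunit, was at 177 to 335, and a weaker probe set of it read 561 and 168 on day 2. Birc5, which encodes survivin, was below the filter, with 68.8, 453, 1531 and 47.6 in control, against 38.5, 50.2, 43.5 and 279.8 in MET KO + EGFRi, a difference of -3.81 on day 2. Ncapg, also below the filter, spanned 27 to 139 in control, while MET KO + EGFRi had 47.7 to 125.

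Among cytokinesis genes, Ect2 stood apart from Prc1 and Racgap1. Ect2, the exchange factor that activates RhoA at the cleavage site, had 86.9, 501, 1076 and 344 in control, and MET KO + EGFRi read 95.1, 209, 116 and 333. It was level between the arms on days 0 and 5 and 9.26 times as high in control on day 2. Prc1, the bundler of the central spindle, had 232, 671, 733 and 529 in control, against 239, 588, 520.2 and 479 in MET KO + EGFRi. Its course was nearly the same in both arms, with a difference of -0.44 on day 2. Racgap1, the partner through which ECT2 is recruited, had 321, 443, 922 and 536 in control, while MET KO + EGFRi had 417, 702, 445 and 219.5. On this main probe set it was highest a day earlier in MET KO + EGFRi and the only member kept that was 2-fold lower there on day 5. Another probe set of Racgap1, below the filter, gave another course, with 41.2, 17.6, 51 and 90.4 in MET KO + EGFRi. It was highest there on day 5, when control had 113. Below the filter, Kif20a was lower in MET KO + EGFRi on day 2 (69.6 against 323) and Kif23 was higher (364 against 124). A second probe set of Kif23, also below the filter, was lower there that day (139 against 198.5), so the direction for Kif23 is not settled. Anln, the scaffold anillin, had 56.5 in control on day 0 and 204 to 441 in the other 7 arrays.

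Members have 102 probe sets in all. Of the 56 that were not the main one, 40 were lower in MET KO + EGFRi on day 2, and of the 17 of these that passed the filter 13 were lower, 5 by at least 2-fold, with 1 at least 2-fold higher. By main probe set, 46.8% of all genes were lower that day. Of genes kept, 47.7% were lower, 2.03% by at least 2-fold, and 2.88% were at least 2-fold higher. The shares over all probe sets that are not the main one were not computed.

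The tests set these differences against how far the difference between the arms varied from day to day, since the pools of different days were the only repeated measure. With an arm term and a day term alone, a gap between the arms on a single day counts as spread. For Mad2l1 the arm difference averaged over days thus had a standard error of 0.70. The limma model held an arm term and a day term, which left 3 residual degrees of freedom, and p-values were adjusted over 12112 genes by Benjamini-Hochberg. No member was called at an adjusted p under 0.05 in any of 8 comparisons. Averaged over days, 26 of 32 members were lower in MET KO + EGFRi, as were 6007 of all 12112 genes, with a median of -0.18 against 0.0021 over all genes. limma called 0.578% of all genes there. At an unadjusted p under 0.05, 3 members were lower (Cdc20, Mki67 and Spc24) and none higher, against 5.99% and 6.12% of all genes. Spc24 had the smallest p, with a log2 difference of -1.62, a standard error of 0.31 and an adjusted p of 0.0982, and from 0.0696 to 0.278 over the alternatives.

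Against day 0, averaged over arms, most members were higher on each later day. limma called 0.124%, 0.0578% and 0.33% of all genes on days 1, 2 and 5, and none of the 32 members. At an unadjusted p under 0.05 it gave 6 members higher on day 1, 12 on day 2 and 7 on day 5. Of all genes, 4.48%, 4.34% and 6.02% were higher on those days at that threshold. Of the 12 members on day 2, Ccnb2, Ect2 and Smc2 passed the filter only through the control day 2 array, where they were highest. Kif2c was lower on day 5 on its main probe set, while another that passed the filter was higher than on day 0 in both arms. The shares of all genes that were lower were 3.14%, 3.36% and 4.67%. Medians were 0.45, 0.63 and 0.38, against -0.01, -0.02 and 0.0033 over all genes. Prc1 had the smallest p on all 3 days, with log2 differences of 1.19, 1.17 and 0.90, a standard error of 0.21 and adjusted p of 0.129, 0.156 and 0.166. Cdk1 was higher on day 2 by 2.34 (standard error 0.47) and Top2a by 1.38 (0.28), each with an adjusted p of 0.201. Prc1 and Top2a were higher on days 1, 2 and 5 than on day 0 in both arms.

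Whether the arms differed more on 1 day than on the others was tested with 1 added term and 2 residual degrees of freedom. limma called no gene at all on any day, 0% of 12112. For day 2, 9 members had an unadjusted p under 0.05, all of them lower in MET KO + EGFRi than the other days would give, namely Ccna2, Ccnb2, Cdc20, Cdk1, Ect2, Hmmr, Mad2l1, Nusap1 and Smc4. Of all genes, 390 (3.22%) were lower and 529 (4.37%) higher at that unadjusted threshold. Mad2l1 had the largest such difference, -4.26 with a standard error of 0.58 and an unadjusted limma p of 2.13e-04, and its adjusted p was 0.618. Ccnb2 followed with -2.98 (standard error 0.65) and Ect2 with -2.28 (0.56), both with an adjusted p of 0.618. Both genes passed the filter only through the control day 2 array, where they were highest. Over the 32 members 24 were lower and the median was -0.61, against 5693 of 12112 and 0.03 over all genes. For days 0, 1 and 5 the members with an unadjusted p under 0.05 were Nusap1 and Smc2 (higher, day 0), Spc24 (lower, day 1) and Spc25 (higher, day 5), where 2.41%, 1.47% and 2.98% of all genes went that way and 2.07%, 1.68% and 2.96% the other. These 2, 1 and 1 of 32 members are near that background.

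Other genes of the cycle were read for comparison. Of all 12112 genes kept, 47.7% were lower in MET KO + EGFRi on day 2, 2.03% by at least 2-fold, and 5892 were higher on day 5. Of 66 other mitosis genes kept, 43 were lower in MET KO + EGFRi on day 2, 4 by at least 2-fold, with a median of -0.19. Among these, Kif22, a chromosome motor, had 852 and 201 on day 2, and Rad21, a subunit of cohesin, 1528 and 627. Of 25 DNA replication genes, 21 were lower on day 2, 2 by at least 2-fold, and 19 were higher on day 5. Rrm2, the inducible subunit of ribonucleotide reductase, had 551, 3684, 3857 and 905 in control, against 603, 1967, 899.5 and 2613 in MET KO + EGFRi. Mcm2, of the replicative helicase, had 195, 1261, 1094 and 593 in control, while MET KO + EGFRi had 184, 629.8, 304 and 545. Both had their first high value on day 1 in both arms, and neither passed the test in any comparison. Ccnd1, cyclin D1, which starts the cycle upstream of these genes, had 4553, 6318, 6381 and 5647 in control, and MET KO + EGFRi read 1232, 3172, 3571 and 4264. MET KO + EGFRi was the lower arm on each of the 4 days, with a mean log2 difference of -1.01, a standard error of 0.22 and an adjusted limma p of 0.128. Cdkn3, a phosphatase that acts on CDKs, shared the day 2 difference, reading 1229.9 in control and 421 in MET KO + EGFRi.

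Cell type markers were also compared between the arms on day 2, when 6327 of all 12112 genes kept were higher in MET KO + EGFRi. All 15 Kupffer cell markers were higher in MET KO + EGFRi, with summed signals of 19996 to 41982 over the control arrays and 34954 to 63114 over the MET KO + EGFRi arrays. Endothelial markers were higher for 11 of 12 (11040 to 16215 and 12493 to 17252), and monocyte and neutrophil markers for 8 of 9 (4965 to 5343 and 14275 to 44934). Each range of sums spans all 4 days of an arm. On day 2 the monocyte and neutrophil sum was 4965 in control and 16992 in MET KO + EGFRi, of which Lcn2 alone gave 525 and 7771. In MET KO + EGFRi, Lcn2 gave 34565 of 44183 on day 0 and 36042 of 44934 on day 1. Hepatocyte markers were higher for 11 of 12 (320794 to 496869 and 364906 to 484396). Stellate cell markers were higher for 5 of 9 (11777 to 13080 and 14540 to 18228), lymphocyte markers for 5 of 7 (5277 to 5717 and 5108 to 6032), erythroid markers for 3 of 4 (4053 to 4900 and 3499 to 4850) and cholangiocyte markers for none of 2 (1028 to 2182 and 1062 to 1697). The 5 of 9 for stellate cells is near the share over all genes. Of the stellate sum on day 2, Dcn alone gave 4370 of 12466 in control and 9520 of 18228 in MET KO + EGFRi. The differences were not confined to day 2. For the arm difference averaged over days, limma called 4 of 9 monocyte and neutrophil markers higher in MET KO + EGFRi at an adjusted p under 0.05. It also called 1 of 15 Kupffer cell markers (Cd5l) and 1 of 9 stellate cell markers (Dcn) higher, and 0.578% of all genes in either direction. No marker of the other lists was called there. No marker was listed at 0. Which cells the mitosis signals came from cannot be read from whole liver, and the part of these cell types in the day 2 difference was not tested.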

How the data were processed

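The deposited intensity values, 1 linear signal per probe set and array, were computed with MAS5 per the submitters' processing notes, and in each array their mean after trimming 2% at each end is 500. The version of MAS5 is not given in the sources used here. Per the labels' protocols, each array took 6 µg of total RNA from pooled livers.

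From 45101 probe sets 64 controls were left out. The platform's gene table names 1 gene for 34945 of the others and several for 932, and 9160 are not listed. Signals were read as log2(signal + 71), the lower quartile, which understates folds of weak genes. The probe set of highest mean stood for its gene, and genes whose mean reached 8.24, the median over probe sets, were kept. limma (3.58.1, R 4.3.3) with a variance trend fitted the arrays, with Benjamini-Hochberg adjustment over 12112 genes, and was tested on simulated data. Its p-values measure only how the difference between the arms varied over the day pools, and not the spread between mice. For 1 array against 1 array, genes at least 2-fold apart were counted and no p was computed. The alternatives were the pseudocount, the filter, the choice of probe sets, quantile normalization, the variance trend, and each array left out. Motifs were searched in RefSeq promoter windows.

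The members, the other gene lists and the tests were chosen with earlier results of these data known. Any member could be named. All 8 signals are given for kept members that were 2-fold apart between arms or days, and for Foxm1, Mki67, Top2a and Cdk1. Signals of some weaker members and of second probe sets were added after their values were seen. Outside the members, Cyp2b10, Ccnd1 and up to 6 genes per list with the largest day 2 difference could be named, and Alb and Met as checks.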

Additional observations from a re-analysis of the deposited data

Results flagged for a closer look

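For 5 members the signal on day 5 was at least 2-fold below that on day 2 in control and at least 2-fold above it in MET KO + EGFRi. These were 5 of 46 members read (10.9%), whereas 103 of 18193 genes (0.566%) had opposite differences of that size. The change in MET KO + EGFRi minus that in control was 5.37 on the log2 scale for Birc5, 4.95 for Mad2l1, 3.81 for Nuf2, 3.7 for Ccnb2 and 2.58 for Ect2. Each arm had 1 array per day, so the difference for these genes was not tested. Birc5 and Nuf2 were below the filter on low signals.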

How the results depend on the processing

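No member was called by limma in any of 120 fits of the 8 comparisons under the alternatives, in which the smallest adjusted p of a member lay between 0.0696 and 1. Single arrays decide the direction of weak or late differences. Leaving out 1 array at a time, the arm difference averaged over days ran from -1.39 to 0.26 for Mad2l1 (-0.80 with all arrays, positive without either day 2 array) and from -0.217 to 0.0573 for Foxm1 (-0.05, positive without either array of day 0 or day 2). The day 2 change averaged over arms ran from -1.10 to 3.15 for Mad2l1 (1.02, negative without the control day 2 array) and from -0.19 to 0.23 for Foxm1 (0.02, negative without the control day 2 or the MET KO + EGFRi day 0 array). The arm difference of Spc24 on day 2 against the other days ran from -0.34 to 0.74 (0.23, negative without either day 1 array), and was -0.11 with the pseudocount at the median signal. With that pseudocount, counts of members at least 2-fold apart were 2 in place of 5 (lower in MET KO + EGFRi, day 1), 5 in place of 9 (control, day 1), 1 in place of 5 (MET KO + EGFRi, day 2) and 4 in place of 7 (MET KO + EGFRi, day 5). A filter at the upper quartile left 11 members, of which 1 was 2-fold lower in MET KO + EGFRi on day 1 and 2 on day 2, with a day 2 median of -0.006. In control 1 and 2 of these were 2-fold higher on days 1 and 2, and in MET KO + EGFRi 0 and 1 on days 2 and 5. Of the 11, 3 were highest on day 2 in control and 1 in MET KO + EGFRi. Without a filter, 14 of 46 were 2-fold higher in control on day 1, and 5 were highest on day 2 in MET KO + EGFRi. With the mean of a gene's probe sets, 21 members passed the filter and 9 were 2-fold higher in control on day 2. The arm difference averaged over days is itself paired by day, through the day term of its fit. Beyond that, no paired analysis was possible because each group has 1 array and so no replicate numbers to pair.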
